A study of Mus musculus with 18 samples.

Results

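Neural stem cells that leave the cell cycle in serum while exposed to the cytokine TNF were compared with the proliferating neurospheres (NSPs) they came from. The 72 h TNF group was 3 cultures of cells differentiated for 72 h in medium with 10% serum and with TNF at 50 ng/ml, and the NSP group was 3 cultures of free-floating aggregates kept in serum-free medium with EGF at 20 ng/ml. Both groups were wild-type C57BL/6J cells taken from the ventricular zone of brains at embryonic day 14, with no transgene or deleted gene, and the differentiated cells were plated on coated plastic. These 6 libraries are part of a series of 18 libraries in 6 groups, and the 3 cultures differentiated for 72 h without TNF (72 h) were used here to measure the part of the change that went with TNF. Members of the comparison were chosen by their labels alone, and all 54838 genes of the table entered it, of which 20067 had enough counts to be tested. Between NSPs and 72 h TNF cells the growth factor, the serum, the attachment to a surface, the time and the cytokine all changed together, so their shares of a difference cannot be told apart in that comparison. The comparison of 72 h TNF with 72 h differs, by the labels, in the cytokine alone. The labels do not say whether the 3 cultures of a group came from different embryos, so p-values measure the spread between these cultures. In bulk RNA, fewer cells of a type and less RNA per cell cannot be told apart.

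As background, NSPs divide under EGF, whose receptor signals through the ERK kinases, and they keep Notch signalling active between neighbouring cells. Serum together with the loss of EGF makes them leave the cell cycle and take on astrocyte features, among them the filament protein GFAP. TNF binds receptors that free the transcription factor NF-kB from its inhibitors, and NF-kB in turn induces those inhibitors, chemokines, adhesion molecules and complement proteins. Reactive astrocytes, the form astrocytes take in injured or inflamed tissue, are known for many of the same genes.

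Total counts ranged from 17326245 to 19045824 in the NSP libraries and from 14745995 to 17775113 in the 72 h TNF libraries, within a range of 12509693 to 22549627 over the series. Levels are given in CPM, that is counts scaled to library size with edgeR's TMM factors, and a gene is said to be called, to rise or to fall where the adjusted p of edgeR's quasi-likelihood test was under 0.05. In both groups the library numbered 1 stood apart from its replicates. NSP replicate 1 had 397 genes over 2-fold above and 459 over 2-fold below both other NSP libraries, against at most 6 for those others, and 72 h TNF replicate 1 had 330 above and 401 below, against at most 19. In 72 h TNF replicate 1 mitochondrial transcripts took 8.01% of the counts, against 3.66% and 2.43% in its replicates. Lead counts are therefore also given without both of these libraries, an alternative added after the data were seen. The parts of culture, RNA quality and library preparation in these 2 libraries were not tested. Untreated 72 h replicate 1, used in the direct comparison, had 202 genes over 2-fold above both its replicates, against 5 and 3 for those. In the 24 h TNF group replicate 1 had 446 above and 347 below.

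The identity of the cultures was first read from marker genes. The microglial genes Tyrobp, Itgam, C1qa, C1qb and C1qc had at most 1 count in any library of the 3 groups. Of the 13 microglia and macrophage markers 10 were too low to test. The 3 tested, P2ry12, Csf1r and Fcer1g, had at most 30, 15 and 19 counts in any of these libraries, and none was called. The summed level of the 13 markers was 2.503 to 3.29 CPM in NSPs and 3.10 to 3.25 CPM in 72 h TNF cells. Endothelial markers summed to 3.64 to 6.60 CPM and 4.39 to 4.94 CPM, with Cdh5 and Ly6c1 at 0 counts in all 9 libraries, and 1 of 5 tested was called, Flt1 (log2 fold change 1.34, adjusted p = 0.0357), a call lost without 72 h TNF replicate 1 (0.91, adjusted p = 0.19) and without any one of the NSP libraries. Pericyte and fibroblast markers summed to 6.66 to 20.7 CPM and 4.63 to 8.06 CPM, with Lum at 0 counts throughout, and of 3 tested Rgs5 rose from at most 2 counts to 4.56, 2.09 and 1.56 CPM while Pdgfra fell from 5.9, 18.8 and 19.7 CPM to 2.65, 1.97 and 1.44 CPM. The astrocyte label was met in part. Gfap and Clu rose, as described below, whereas the summed level of the 25 astrocyte markers was 8929 to 11162 CPM in NSPs and 8242 to 9583 CPM in 72 h TNF cells, so the 2 groups overlapped.

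The comparison with NSPs called 6368 genes higher and 6045 lower in 72 h TNF cells, or 61.9% of the genes tested (31.7% higher and 30.1% lower). Without both libraries numbered 1 it called 5837 higher and 5577 lower, and 10466 of the 12413 calls were among them. The changes were large. Of the genes called, 4515 rose and 2973 fell at least 2-fold, 904 rose and 517 fell at least 8-fold, and 239 rose and 143 fell at least 32-fold. For 64.6% of the genes tested the 3 values of one group lay wholly above or below those of the other. The direct comparison with untreated 72 h cells called 1919 genes, or 9.56% (4.35% higher and 5.21% lower with TNF), and this count was 965 without 72 h replicate 2, 1049 without 72 h replicate 3 and 2922 without 72 h replicate 1. Untreated 72 h cells set against the same NSP libraries gave 55.3% called (28.1% higher and 27.2% lower), and because both comparisons rest on the same NSP libraries their values are only placed side by side. Of the genes called higher than in NSPs, 541 were also higher and 339 lower than in untreated 72 h cells, and of those called lower, 384 were also lower and 142 higher.

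Higher and lower calls fell on different kinds of transcript. Among 13784 protein-coding genes 3497 rose and 5471 fell (median log2 fold change -0.18), whereas among 1643 TEC loci, tentative transcripts of the annotation that await experimental evidence, 959 rose and 73 fell (median 0.98). Long intergenic RNAs showed 336 rises and 96 falls among 783, antisense genes 576 and 104 among 1278, and sense intronic RNAs 114 and 7 among 213. Protein-coding genes took 91.1% to 92.9% of the counts in NSPs, 82.6% to 88.9% in 72 h TNF cells and 86.6% to 89.0% in untreated 72 h cells. Malat1, a nuclear long non-coding RNA, alone took 1.496% to 2.24% of the counts in NSPs and 4.06% to 5.85% in 72 h TNF cells, and the 2 groups did not overlap. The libraries were made from total RNA depleted of ribosomal RNA, which can hold unspliced transcripts, and the share of these in the counts was not measured. Whether the counting used strand is not given in the sources used here, so reads of antisense, intronic and TEC loci cannot be told apart from those of the genes they overlap.

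**Figure D1:**
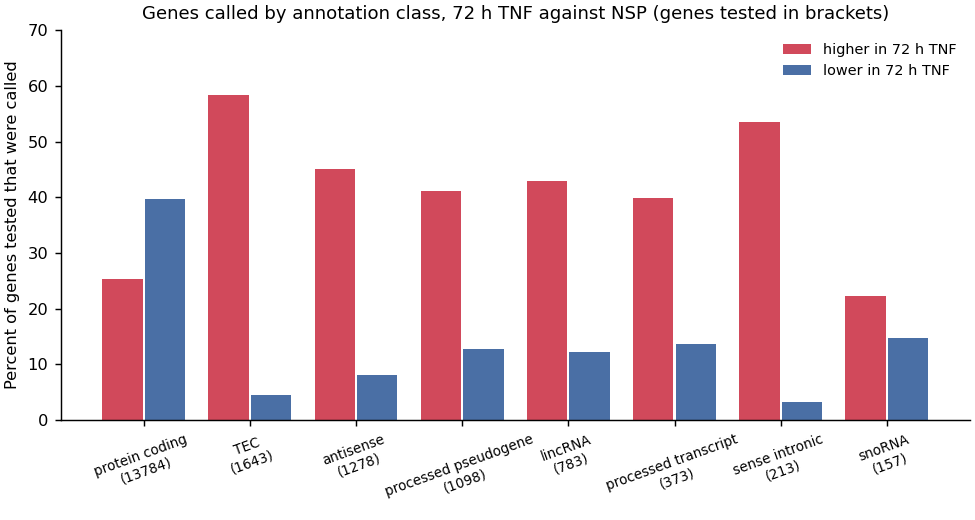
Percent of the tested genes of each annotation class (number tested in brackets) called higher (red) or lower (blue) in 72 h TNF cells than in NSPs. Protein-coding genes are the class where lower calls outnumber higher ones, 5471 against 3497, and the 7 other classes shown have more higher than lower calls.

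The largest falls were those of cell division. Of 20 tested genes of mitosis all 20 fell, with a median log2 fold change of -5.82, where the median of all genes tested was 0.09. Summed over the list, the level was 2833 to 4234 CPM in the NSP libraries (median 2992), 42.9 to 73.4 CPM with TNF (median 47.1) and 46.6 to 59.9 CPM at 72 h without TNF (median 48.1). The groups with and without TNF overlapped, and none of the 20 differed between them in the direct test, where 9.56% of all genes did. Ccnb1, the cyclin that drives entry into mitosis (chromosome 13 from 100778650 to 100786570, reverse strand of GRCm38), was at 248, 148 and 157 CPM in the NSPs, 1.18, 0.638 and 0.501 CPM with TNF and 0.378, 0.368 and 1.21 CPM at 72 h without it. It fell in every culture (log2 fold change -7.87 ± 0.44 (SE), adjusted p = 7.46e-11), and so did Mki67, the proliferation antigen Ki-67 (log2 fold change -6.71 ± 0.50 (SE), adjusted p = 2.79e-09), from 493, 457 and 471 CPM to 10, 1.62 and 1.75 CPM. In 72 h TNF replicate 1 Mki67 was several times its level in the other 2 libraries of the group. Top2a, which untangles chromosomes (-6.99), Bub1, a kinase of the spindle checkpoint (-7.90), and Ube2c, which serves the destruction of mitotic cyclins (-7.90), fell as steeply on the same log2 scale.

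Genes of DNA replication fell to a lesser degree. All 20 tested genes fell (median -3.30), and the summed level was 1292 to 3114 CPM in NSPs (median 1343) and 227 to 253 CPM with TNF (median 246). Mcm5, a subunit of the replicative helicase, was at 199.6, 85.7 and 87.7 CPM in the NSPs and 2.37, 3.95 and 3.88 CPM with TNF, so that its NSP values were themselves spread over a range larger than 2-fold. Uhrf1, which maintains DNA methylation behind the fork (-6.19), Cdc6, which loads the helicase (-5.42), and Rrm2, a ribonucleotide reductase subunit (-5.29), were the other members with the largest falls. Without both libraries numbered 1 all 20 still fell and the median was -2.87. Genes of ribosome biogenesis also fell in 20 of 20 cases, by less (median -1.22). Npm1, a nucleolar chaperone, was at 1046, 674 and 695 CPM in the NSPs and 212, 266 and 199 CPM with TNF, Nop56, a box C/D snoRNP protein, fell by 2.06, Bop1 by 1.82 and Nolc1 by 1.73 on the log2 scale. Without both libraries numbered 1, 19 of the 20 fell and the median was -0.89.

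The promoters of these genes are shown because the list moved together. Upstream sequences of 250 bases from RefSeq (GRCm38.p6) were found for 17 of the 20 mitosis genes and 17 of the 20 replication genes, and words were searched on both strands. CCAAT, the word bound by NF-Y, stood in 15 of 17 mitosis promoters (88.2%), against 37.5% of the 27025 genes with a promoter, and TTTGAA or TTCGAA, the words of the cell cycle homology region, in 8 of 17 (47.1%, against 19.6%). E2F words (TTTCCCGC, TTTCGCGC, TTTGCCGC or TTTGGCGC) stood in 6 of 17 replication promoters (35.3%, against 2.16%). Among the tested genes with a promoter the 3 shares were 39.8%, 14.7% and 3.68%. Matches are descriptions of letters and not of bound sites. The lists were chosen by function, so these shares describe the lists and are no result of these data. The promoter of Ube2c is chr2:164769679-164769928 (forward strand) and that of Mcm5 chr8:75109259-75109508 (forward strand), each printed 5′ to 3′ on the gene's strand and ending at the base before the RefSeq start. Capitals mark CCAAT and TTTGAA or their reverse complements in Ube2c, where 2 of the 6 CCAAT matches overlap, and 2 overlapping E2F words in Mcm5.
Ube2c: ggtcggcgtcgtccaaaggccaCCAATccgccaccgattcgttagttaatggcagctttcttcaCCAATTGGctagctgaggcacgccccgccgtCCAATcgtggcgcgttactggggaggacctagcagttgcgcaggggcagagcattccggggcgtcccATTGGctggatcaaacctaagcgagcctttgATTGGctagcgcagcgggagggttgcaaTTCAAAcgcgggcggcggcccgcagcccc
Mcm5: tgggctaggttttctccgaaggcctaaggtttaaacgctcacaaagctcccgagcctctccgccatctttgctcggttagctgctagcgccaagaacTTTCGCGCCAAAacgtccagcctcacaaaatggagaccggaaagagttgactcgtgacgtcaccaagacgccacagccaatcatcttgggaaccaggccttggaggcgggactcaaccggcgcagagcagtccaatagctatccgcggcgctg

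Genes of growth factor response fell less far with TNF than without it. Of 16 tested genes of EGF and ERK feedback, 8 fell and 1 rose from NSPs (median -1.09), against 30.1% and 31.7% of all genes. Without NSP replicate 1, which stands apart from its replicates, 7 fell and 2 rose (median -0.64). In the direct comparison 10 of the 16 were higher in 72 h TNF than in untreated 72 h cells, where the background of higher calls was 4.35%. Ccnd1, the cyclin D1 of early G1, was at 671, 321 and 332 CPM in the NSPs, 17.2, 33.4 and 33.5 CPM with TNF and 10.3, 9.33 and 13.4 CPM at 72 h without it. The 2 differentiated groups did not overlap and the direct difference was 1.34 ± 0.41 (SE) (adjusted p = 0.0429), a call that was lost when any one of 72 h TNF replicates 2 or 3 or of the 72 h libraries was left out (1.24, adjusted p = 0.17 without 72 h replicate 2). Etv4, a transcription factor induced by ERK, was at 99.6, 107 and 106 CPM in the NSPs, 11.4, 15.3 and 19.3 CPM with TNF and 2.72, 3.44 and 2.53 CPM at 72 h without it, and differed between the 2 differentiated groups by 2.40 ± 0.29 (SE) (adjusted p = 2.31e-05). Spry4, which dampens receptor tyrosine kinase signals, fell from NSPs (-2.98) and was 1.97 higher on the log2 scale with TNF than without (adjusted p = 0.000774). Spry1 fell by 2.81 on the log2 scale. The member that rose was Ier3 (1.70), an early response gene that stayed under 2 CPM.

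Of 13 tested markers of neural stem and progenitor cells 8 fell and 1 rose (median -1.04), where 30.1% and 31.7% of all genes did so. Hes5, a repressor switched on by Notch, was at 24.5, 99 and 94 CPM in the NSPs, 0.902, 0.29 and 1.13 CPM with TNF and 0.151, 0.614 and 0.33 CPM at 72 h without it. It was at no more than 1.13 CPM in any of the 6 differentiated cultures (log2 fold change -6.55 ± 0.63 (SE), adjusted p = 7.54e-08). Hes1, a second Notch target, was at 53.3, 48.3 and 41.3 CPM in the NSPs, 1.18, 3.54 and 4.94 CPM with TNF and 7.95, 8.28 and 9.85 CPM at 72 h without it, so that it fell from NSPs (-3.89) and was lower again with TNF than without (-1.44 ± 0.35 (SE), adjusted p = 0.0115). That second call was lost without 72 h replicate 3 (-1.34, adjusted p = 0.054). The Notch ligands Dll3 (-4.91) and Dll1 (-3.27) fell as well, whereas Msi1, an RNA-binding protein of progenitors, rose from 25.7, 39.5 and 30.4 CPM to 134, 92.2 and 114 CPM.

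Astrocyte markers as a list stood close to genes at large against NSPs. Of 24 tested, 8 rose and 8 fell (median -0.03), where 31.7% and 30.1% of all genes did so, and in the direct comparison 8 were lower and 1 higher with TNF than without, against backgrounds of 5.21% and 4.35%. Without NSP replicate 3 the markers called higher than in NSPs were 5, and without both libraries numbered 1 the counts were 6 higher and 9 lower. Gfap, the intermediate filament protein of astrocytes (chromosome 11 from 102887336 to 102900912, reverse strand of GRCm38), was at 11.6, 37.3 and 32.4 CPM in the NSPs, 1022, 217 and 229 CPM with TNF and 1855, 3172 and 2270.0 CPM at 72 h without it. TNF cells were above every NSP culture (log2 fold change 4.17 ± 0.62 (SE), adjusted p = 1.37e-05) and below every untreated 72 h culture (-2.31 ± 0.56 (SE), adjusted p = 0.0128), and 72 h TNF replicate 1 held several times the level of its replicates, the value from NSPs being 3.06 without it. The difference from untreated cells was not called without 72 h TNF replicate 2 (-1.96, adjusted p = 0.059), 72 h TNF replicate 3 (-1.98, adjusted p = 0.058) or 72 h replicate 2 (-2.08, adjusted p = 0.057).

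Clu, the secreted chaperone clusterin, was at 4.13, 7.85 and 7.4 CPM in the NSPs, 243, 344 and 367 CPM with TNF and 655, 859 and 895 CPM at 72 h without it, with no overlap between any 2 of the 3 groups (log2 fold change 5.61 ± 0.23 (SE), adjusted p = 2.37e-12, and -1.34 ± 0.19 (SE) against untreated 72 h cells, adjusted p = 0.000112). Slc6a11, a GABA transporter, went the other way, from 457, 589.6 and 545 CPM in the NSPs to 54.6, 30.4 and 31.2 CPM with TNF (log2 fold change -3.78 ± 0.29 (SE), adjusted p = 4.28e-09). Of further astrocyte genes that the study names, Gpld1, a phospholipase, rose from 3.74, 6.86 and 7.96 CPM to 21.7, 27.9 and 28.5 CPM but was lower than without TNF (-1.38 ± 0.18 (SE), adjusted p = 6.66e-05). Gja1, the gap junction protein connexin 43, was at 112, 302 and 287 CPM in the NSPs, 383, 138 and 116 CPM with TNF and 445, 604 and 569 CPM at 72 h without it and was called in neither comparison, with 72 h TNF replicate 1 apart from its replicates. Slc14a1, a urea transporter, was at 3.32, 1.8 and 1.5 CPM with TNF and 12.2, 16.8 and 13.8 CPM without it (-2.68, adjusted p = 0.000138), and its smaller rise from NSPs (1.15, adjusted p = 0.0293) was lost without 72 h TNF replicate 1 (0.75, adjusted p = 0.18), NSP replicate 1 or NSP replicate 3.

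Many markers of the other neural lineages fell. Of 13 tested oligodendrocyte lineage genes 8 fell and 1 rose (median -1.94), and of 13 neuronal genes 9 fell and none rose (median -2.04), where 30.1% of all genes fell and 31.7% rose. The oligodendrocyte median was -2.53 without 72 h TNF replicate 1 and -2.84 without both libraries numbered 1. With at least 10 counts in every library compared, 5 oligodendrocyte lineage and 3 neuronal genes were called lower. Olig2, a factor of oligodendrocyte precursors, was at 444, 397 and 404 CPM in the NSPs, 27.5, 39.1 and 44.7 CPM with TNF and 21, 21.2 and 18.4 CPM at 72 h without it, so that the residual level was higher with TNF than without in every culture (0.88 ± 0.19 (SE), adjusted p = 0.00629). Olig1 (-3.16), the lipid enzyme gene Ugt8a (at least 17.6-fold lower) and the receptor gene Gpr17 (-3.04) fell, while Cnp, an enzyme of myelin that also occurs in other glia, rose from 63.1, 111 and 108 CPM to 248, 192 and 218 CPM. The neuronal RNA-binding protein gene Elavl4 (-3.70), Rbfox3, which encodes NeuN (-2.89), the synaptic Snap25 (-2.89) and Dcx, a microtubule protein of young neurons (-2.77), fell from levels of at most 7.25 CPM. The summed level of the neuronal list overlapped between the groups, at 1673 to 2134 CPM in NSPs and 1487 to 1675 CPM with TNF, and most of it was Map2, a microtubule protein named after its values were seen, which was not called (-0.20, adjusted p = 0.166).

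Genes of the motile cilium, the beating hair of ependymal cells that line the ventricles, rose from a low base. Of 16 tested 15 rose and 1 fell (median 2.95), against 31.7% and 30.1% of all genes, and their summed level was 59.7 to 80.04 CPM in NSPs, 426 to 586 CPM with TNF and 604 to 701 CPM without it. Members near 0 counts in NSPs enter the test through the groups where they are high. With at least 10 counts in every library compared, 7 were called higher. Dnah5, an outer dynein arm heavy chain, was at 0.444, 0.659 and 0.967 CPM in the NSPs and 31.2, 37.8 and 36.3 CPM with TNF (log2 fold change 5.64 ± 0.52 (SE), adjusted p = 4.43e-08). Dnah9, a second heavy chain, rose as well (5.20), as did Rsph4a of the radial spoke (5.00) and Spag6l of the central pair, which was at no more than 2 counts in NSPs and at least 25-fold higher with TNF. Hydin, another central pair gene, was the exception and fell from 8.31, 5.33 and 5.4 CPM to 0.62, 0.696 and 0.751 CPM. One member differed between TNF and untreated cells in the direct test, Dnah9, which was lower with TNF (-0.88 ± 0.27 (SE), adjusted p = 0.0494), and this call was lost without any one of 72 h TNF replicate 1 and the 3 untreated libraries.

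**Figure D2:**
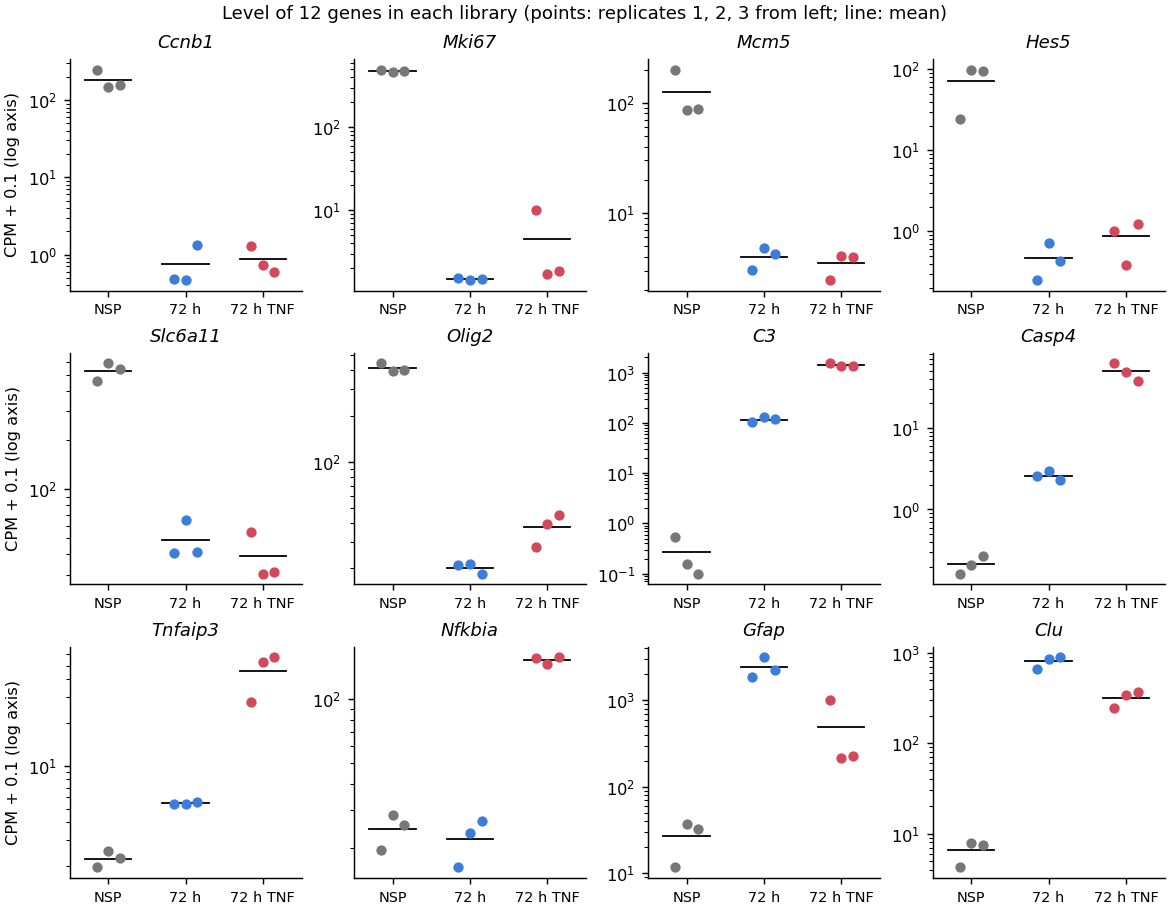
Level of 12 genes in every library of the NSP (grey), 72 h (blue) and 72 h TNF (red) groups, in CPM + 0.1 on a log axis with a scale of its own for each gene. Points from left to right are replicates 1, 2 and 3 and the line is the group mean. Ccnb1, Mki67, Mcm5, Hes5, Slc6a11 and Olig2 are higher in all 3 NSP libraries than in any differentiated library, and C3, Casp4, Tnfaip3 and Nfkbia are highest in the 72 h TNF libraries.

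Targets of NF-kB rose with TNF. Of 11 tested 10 rose and 1 fell from NSPs, against 31.7% and 30.1% of all genes (list median 2.52, against 0.25 in untreated 72 h cells, and 1.47 with TNF when the member absent from NSPs, Traf1, is set at its lower bound), and 7 were higher with TNF than without, against 4.35% of all genes. Tnfaip3, the deubiquitinase A20 that ends the signal (chromosome 10 from 19000910 to 19015657, reverse strand of GRCm38), was at 1.84, 2.42 and 2.16 CPM in the NSPs, 27.6, 52.5 and 57.3 CPM with TNF and 5.3, 5.28 and 5.5 CPM at 72 h without it, with no overlap between the 3 groups (log2 fold change 4.41 ± 0.24 (SE), adjusted p = 5.21e-11). Nfkbia, the inhibitor that holds NF-kB in the cytoplasm (chromosome 12 from 55489410 to 55492647, reverse strand), was at 19.4, 28.6 and 25.5 CPM in the NSPs, 156, 146 and 158 CPM with TNF and 16, 23.3 and 26.6 CPM at 72 h without it. The untreated cells lay within the NSP range or just below it and the TNF cells far above (log2 fold change 2.65 ± 0.17 (SE), adjusted p = 4.74e-10, and 2.80 ± 0.17 (SE) against untreated cells, adjusted p = 1.2e-08). Csf1, the macrophage growth factor, rose from NSPs by 3.09 ± 0.11 (SE) and differed from untreated cells by 0.52 ± 0.10 (SE). Traf1, an adaptor, was at 0 counts in the NSPs and at most 9 counts with TNF, at least 2-fold higher. Sod2, the mitochondrial superoxide dismutase, was the member that fell, from 149.8, 123 and 124 CPM to 76.7, 80.4 and 75.8 CPM. Vcam1, an adhesion molecule named here after its values were seen, was at 69.4, 127 and 129 CPM in the NSPs, 178, 328 and 281 CPM with TNF and 33.6, 35.9 and 42.5 CPM at 72 h without it, so that it fell on differentiation without TNF (-1.54, adjusted p = 7.44e-06) and rose with it (1.28, adjusted p = 4.25e-05). The other 6 members of the list, among them Il6 and Icam1, were too low to test.

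The kB word GGGNNTTTCC stood in the 250 bases upstream of 5 of the 13 list members with a promoter (38.5%), namely Csf1, Il6, Nfkb2, Nfkbia and Tnfaip3, against 1.65% of all genes with a promoter and 1.6% of those tested. Il6 was too low to test. The list was chosen as NF-kB targets, so this share describes the list and is no result of these data. Among genes called higher with TNF than without it was found in 21 of 502 (4.18%), among those called lower in 8 of 775 (1.03%), and among genes called higher than in NSPs in 63 of 3178 (1.98%). In the complement list, where 8 of 14 members had a promoter, C3ar1 alone held the word, so C3 was no match. For Cldn1, Paqr5, Slc39a4 and Tlr2, which also stood high against untreated cells, the search result is not given here. Promoters that hold the word are shown for the 2 inhibitors and for Casp4 and Steap4, both well above untreated cells. They are examples and no measure of how often such genes hold it. Each is printed 5′ to 3′ on the gene's strand with the word or its reverse complement in capitals. They lie at chr12:55492648-55492897 (reverse strand), chr10:19015411-19015660 (reverse strand), chr9:5308599-5308848 (forward strand) and chr5:7960222-7960471 (forward strand) of GRCm38.p6. The word stands 29 bases before the RefSeq start in Nfkbia, 12 in Tnfaip3, 93 and 14 in Casp4 and 226 in Steap4. The sequence table holds 2 RefSeq starts each for Tnfaip3 and Casp4, and these distances are from the one whose window is printed. The printed Tnfaip3 window lies almost wholly inside the gene as the annotation of the counts places it, and the windows of Casp4 and Steap4 reach a short way into theirs. A gene with several starts was counted as holding the word if any of its windows did.
Nfkbia: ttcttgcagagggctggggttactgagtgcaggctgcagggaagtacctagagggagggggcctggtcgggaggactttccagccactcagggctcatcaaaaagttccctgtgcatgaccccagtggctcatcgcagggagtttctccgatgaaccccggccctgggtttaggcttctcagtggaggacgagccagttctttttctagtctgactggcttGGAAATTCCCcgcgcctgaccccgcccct
Tnfaip3: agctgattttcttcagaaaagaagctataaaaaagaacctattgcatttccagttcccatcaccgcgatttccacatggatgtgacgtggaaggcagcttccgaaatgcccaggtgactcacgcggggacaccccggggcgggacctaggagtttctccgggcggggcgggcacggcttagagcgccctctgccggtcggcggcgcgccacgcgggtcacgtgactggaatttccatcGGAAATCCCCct
Casp4: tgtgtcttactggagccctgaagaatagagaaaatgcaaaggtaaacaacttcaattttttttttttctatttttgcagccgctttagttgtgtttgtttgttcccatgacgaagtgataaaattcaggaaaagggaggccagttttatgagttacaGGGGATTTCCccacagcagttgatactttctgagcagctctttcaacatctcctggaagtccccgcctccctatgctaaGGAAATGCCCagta
Steap4: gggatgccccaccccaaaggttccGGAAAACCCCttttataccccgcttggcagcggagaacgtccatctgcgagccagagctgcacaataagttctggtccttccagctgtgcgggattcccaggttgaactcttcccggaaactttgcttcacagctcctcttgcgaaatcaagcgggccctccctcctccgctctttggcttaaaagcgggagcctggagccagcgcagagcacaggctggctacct

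Chemokines were low in this setting. Of 15 listed 6 were tested, 4 rose and 1 fell, beside 31.7% and 30.1% of all genes, and the summed level was 30.5 to 46.5 CPM in NSPs and 106 to 175 CPM with TNF. With at least 10 counts in every library compared, 1 was called higher and 0 lower. Cxcl10, which attracts T cells, was at 0.0635, 0.11 and 0.0569 CPM in the NSPs, 5.35, 14.6 and 12.8 CPM with TNF and 2.04, 2.45 and 2.92 CPM at 72 h without it, at least 62.5-fold above the NSPs, and it exceeded untreated cells in every culture (2.13 ± 0.39 (SE), adjusted p = 0.00129). The monocyte attractants Ccl2 (2.15) and Ccl7 (2.03) rose to at most 4.38 CPM, and Cxcl12 fell from 1.4, 0.714 and 0.91 CPM to 0.282, 0.116 and 0.188 CPM. Cx3cl1, the membrane-bound fractalkine named after its values were seen, carried most of the list's counts, with 42.3, 28.7 and 28.7 CPM in the NSPs, 94.1, 132 and 155 CPM with TNF and 44.4, 50.1 and 52.5 CPM at 72 h without it.

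Complement genes had the highest median rise of the immune lists described here. Of 10 tested 9 rose and 1 fell (median 5.01), beside shares of 31.7% and 30.1% over all genes, and the median in untreated 72 h cells was 5.49. Members near 0 counts in NSPs enter the test through the groups where they are high. With at least 10 counts in every library compared, 2 were called higher and 0 lower. C3, the central component whose cleavage drives the cascade (chromosome 17 from 57203970 to 57228136, reverse strand of GRCm38), was at 0.444, 0.0549 and 0 CPM in the NSPs, 1525, 1363 and 1379.8 CPM with TNF and 104, 128 and 117 CPM at 72 h without it. It had at most 7 counts in any NSP library and rose in every TNF library (log2 fold change 13.09 ± 0.83 (SE), adjusted p = 3.5e-10), and the 3 untreated libraries lay between (3.61 ± 0.49 (SE) for TNF against untreated cells, adjusted p = 8.24e-05). With so few counts in NSPs the size of the rise from them is uncertain, and the value was 15.28 without NSP replicate 1. The proteases that start the classical cascade, C1s1 and C1ra, rose by 7.39 ± 0.46 (SE) and 6.31 ± 0.45 (SE) and were also higher than in untreated cells (1.62 and 1.09), the latter call being lost without 72 h TNF replicate 1 (0.84, adjusted p = 0.12) and without 72 h replicate 1 or 2. Cd59a, which protects cells from the membrane attack complex, rose from at most 3 counts to 2.82, 9 and 7.76 CPM but was lower than without TNF (-1.57, adjusted p = 0.00104). C2 fell from 2.09, 1.1 and 1.31 CPM to 0.225, 0.232 and 0.125 CPM.

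Antigen presentation by MHC class I rose in 8 of 13 tested genes and fell in none (median 0.99), where 31.7% and 30.1% of all genes did so, and 6 were higher with TNF than without, against 4.35% of all genes. H2-K1 was at 3.24, 7.52 and 5.86 CPM in the NSPs, 40.8, 44.2 and 49.8 CPM with TNF and 12.9, 18.3 and 20.4 CPM at 72 h without it and H2-D1 at 2.28, 2.97 and 3.36 CPM in the NSPs, 33, 44.4 and 51.1 CPM with TNF and 12, 15.6 and 17.3 CPM at 72 h without it. Both heavy chains were higher in every TNF culture than in any untreated culture (1.38 ± 0.33 (SE), adjusted p = 0.0115, and 1.52 ± 0.24 (SE), adjusted p = 0.00039). The peptide transporter gene Tap2 rose (2.31), as did Nlrc5, the activator of class I genes, which was not called between TNF and untreated cells (4.08 from NSPs, -0.02 between the 2). H2-K1 and H2-D1 have near-identical relatives in the same gene family, so reads may be split among them. With RLE scaling, with DESeq2 or without NSP replicate 1, 1 member was called lower.

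Interferon response genes rose in 9 of 16 tested cases and fell in none (median 1.02), while 31.7% of all genes rose and 30.1% fell. With at least 10 counts in every library compared, 5 were called higher. Ifit3, an inhibitor of viral translation, was at 0.19, 0.604 and 1.14 CPM in the NSPs, 19.9, 24.6 and 21.9 CPM with TNF and 17.9, 23.1 and 23.4 CPM at 72 h without it, with the 2 differentiated groups overlapping (log2 fold change 5.06 ± 0.36 (SE), adjusted p = 1.52e-09 from NSPs, and 0.04 ± 0.26 (SE) between TNF and untreated cells). Parp14 (3.54), Ifit1 (2.84) and the GTPase gene Gbp2 (2.67) rose from NSPs as well. In the direct test 1 member was higher with TNF and 1 lower, close to the 4.35% and 5.21% of all genes, namely Irf1 (1.38) and Irf9 (-0.52), both named after their values were seen, and the call of Irf9 was lost without 72 h TNF replicate 1 (-0.38, adjusted p = 0.15) and without 3 further libraries. The list was chosen as interferon response genes, so the share of a promoter word given next is no result of these data. The interferon-stimulated response word GAAANNGAAA stood upstream of 8 of the 13 list members with a promoter (61.5%), against 3.46% of all genes and 2.96% of those tested. The Ifit3 promoter, chr19:34583279-34583528 (forward strand), carries it 2 times as the reverse complement, shown in capitals.
Ifit3: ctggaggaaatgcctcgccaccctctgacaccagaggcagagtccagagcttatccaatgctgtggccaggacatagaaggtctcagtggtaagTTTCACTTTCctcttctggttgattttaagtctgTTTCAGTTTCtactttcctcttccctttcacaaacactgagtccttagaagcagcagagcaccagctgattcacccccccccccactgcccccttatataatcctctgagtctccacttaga

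Genes of the pan-reactive astrocyte list were mostly higher than in NSPs. Of 13 genes induced in astrocytes by several kinds of injury 11 rose and none fell, as many as in untreated 72 h cells against the same NSP libraries, where the shares of all genes that rose were 31.7% and 28.1% (list median 4.17 with TNF and 3.31 without, the first being 3.93 with the 4 members near 0 in NSPs at their lower bounds). Such members enter the test through the groups where they are high. With at least 10 counts in every library compared, 6 were called higher with TNF. Steap4, a metalloreductase, was at 0 counts in all 3 NSP libraries and at 18.7, 36.4 and 31.5 CPM with TNF against 1.74, 3.01 and 3.03 CPM without it, at least 165-fold above the NSPs. Lcn2, a secreted iron carrier, was at 0 counts in NSPs and at 7.66, 1.74 and 2.06 CPM with TNF against 1.97, 1.9 and 1.71 CPM without it, so that 72 h TNF replicate 1 alone stood above the untreated range by more than 2-fold. Aspg was at 6.09, 0.522 and 1.38 CPM with TNF and 5.6, 12.1 and 8.03 CPM without it, from at most 1 count in NSPs. Osmr, a receptor for oncostatin M, rose from 1.27, 1.54 and 0.853 CPM to 114, 64.8 and 55.4 CPM (log2 fold change 5.99 ± 0.37 (SE), adjusted p = 2.81e-10). Cd44, a hyaluronan receptor, was at 96, 49.8 and 43.6 CPM in the NSPs and 253, 94.6 and 85.3 CPM with TNF, and its call (log2 1.20) was lost without 72 h TNF replicate 1 (0.56, adjusted p = 0.091). Timp1 stayed under 1 CPM and was not called (-0.05, adjusted p = 0.951). The median of this list without both libraries numbered 1 was 3.05.

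The lists named A1 and A2, from astrocytes exposed to endotoxin and to ischaemia, both held genes moving in either direction. Of 8 tested A1 genes 4 rose and 2 fell, and of 9 tested A2 genes 5 rose and 1 fell, where 31.7% of all genes rose and 30.1% fell. Without NSP replicate 2 the A1 genes that fell were 1, and without 72 h TNF replicate 1 or NSP replicate 1 the A2 genes that fell were 2. Among the A1 genes Serping1, the C1 inhibitor, rose to 18.9, 8.94 and 7.38 CPM and Ggta1 to 0.845, 1.16 and 0.938 CPM, while Fkbp5, a chaperone of steroid receptors, fell from 47, 21.2 and 23.2 CPM to 3.61, 3.08 and 3.5 CPM. Fbln5 fell (-2.30, adjusted p = 0.00724), a call lost without NSP replicate 2 (-1.76, adjusted p = 0.057). Among the A2 genes Tm4sf1, a membrane protein, rose from 1.52, 0.769 and 0.74 CPM to 57.9, 145 and 130.1 CPM and Emp1 by 1.98 on the log2 scale. Clcf1, a cytokine of the gp130 family, reached 1.06 CPM from 0 counts. Ptgs2, cyclooxygenase 2, was at 2.25, 0.29 and 0.125 CPM with TNF and its call was lost without replicate 1 of that group (adjusted p = 0.051). B3gnt5, a glycosyltransferase, fell from NSPs (-1.53).

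**Figure D3:**
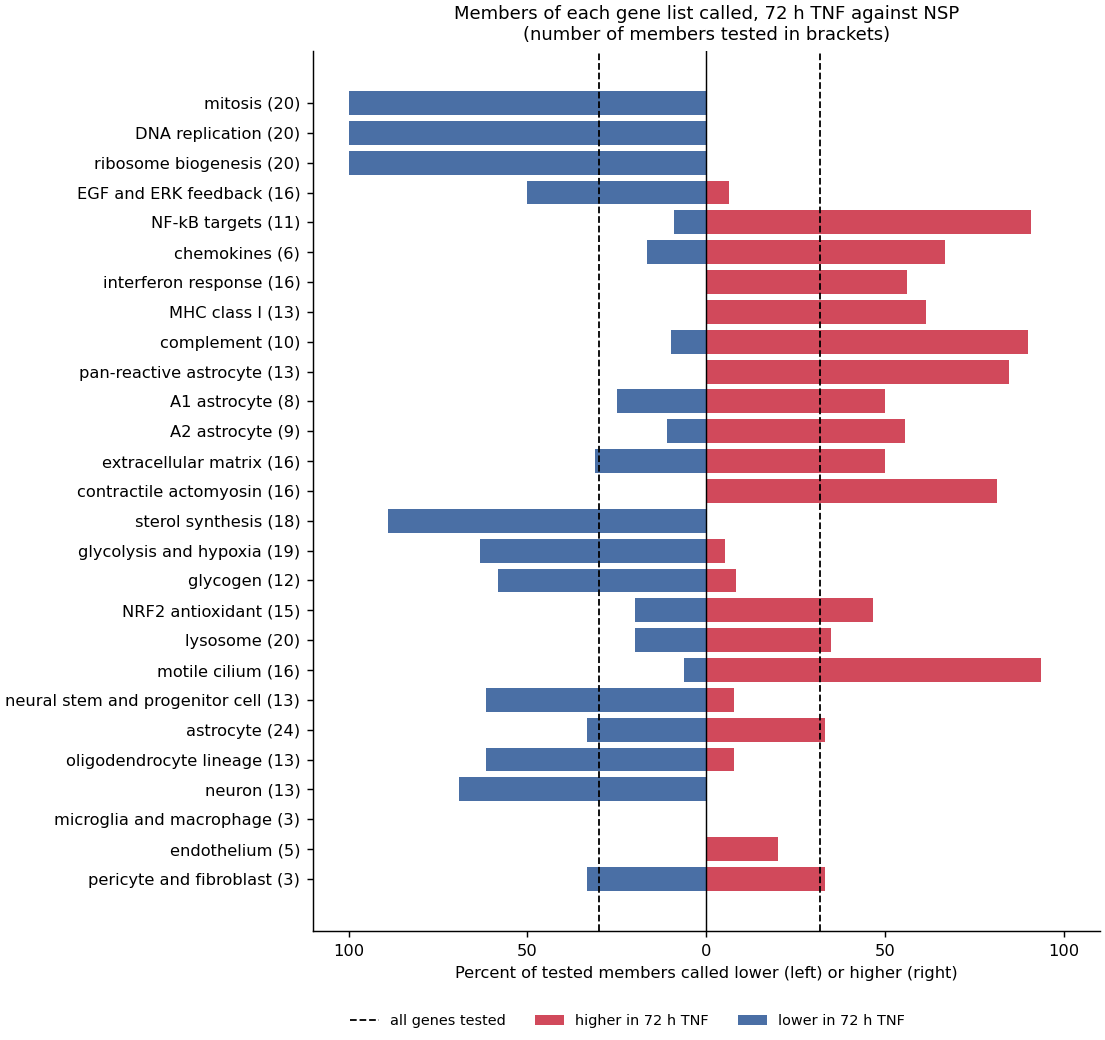
Percent of the tested members of each gene list (number tested in brackets) called lower (blue, to the left) or higher (red, to the right) in 72 h TNF cells than in NSPs. Dashed lines mark the shares over all 20067 genes, 30.1% lower and 31.7% higher, and the bars of mitosis, DNA replication and ribosome biogenesis reach 100% on the lower side.

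Genes of the contractile cytoskeleton rose in 13 of 16 tested cases and fell in none (median 2.05), where 31.7% and 30.1% of all genes did so. No member was called between TNF and untreated cells, where 9.56% of all genes were. Acta2, smooth muscle actin, was at 10.3, 3.62 and 3.53 CPM in the NSPs and 49.2, 186 and 202 CPM with TNF, and Myl9, a myosin light chain, at 16.4, 5.99 and 5.97 CPM in the NSPs and 67.3, 172 and 182 CPM with TNF, with 72 h TNF replicate 1 lowest in both cases. Ccn1, a matrix protein induced by serum and mechanical load, was at 6.98, 5.99 and 6.83 CPM in the NSPs and 105, 126 and 135 CPM with TNF (log2 fold change 4.21 ± 0.22 (SE), adjusted p = 3.34e-11), and the related Ccn2 rose from 0 counts to at most 1.92 CPM. Extracellular matrix genes moved in both directions, with 8 of 16 higher and 5 lower. Thbs1, thrombospondin 1, rose from 5.27, 4.17 and 3.7 CPM to 55.3, 344 and 358 CPM (log2 fold change 5.85 ± 0.55 (SE), adjusted p = 5.03e-08). Col6a1 and Col6a2, chains of collagen VI, rose by 3.96 and 4.27 and were above untreated cells by 2.86 and 2.87 on the log2 scale, with 103, 23.9 and 25.1 CPM of Col6a1 in the TNF libraries and 4.62, 8.41 and 7.7 CPM in the untreated ones. Without 72 h TNF replicate 1 these values were 2.94 and 2.86 from NSPs and 1.82 and 1.43 from untreated cells, and each was still called. Tnc, tenascin C, a matrix protein of the stem cell niche, fell from 693, 639 and 705 CPM to 22.6, 53.9 and 54.1 CPM. The basement membrane genes Lamb1 (-1.74) and Col4a1 (-1.50) and the fibrillin gene Fbn1 (-1.09) fell, as did Col4a2 (-0.69, adjusted p = 0.0413), a call lost without any one of 4 libraries (-0.45, adjusted p = 0.19 without 72 h TNF replicate 2).

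Sterol synthesis fell in 16 of 18 tested genes and rose in none, against 30.1% and 31.7% of all genes (list median -2.58, -2.07 with 15 falling without both libraries numbered 1). Cyp51, the lanosterol demethylase, was at 809, 321 and 339 CPM in the NSPs and 33.9, 58.6 and 47.7 CPM with TNF (log2 fold change -3.39 ± 0.41 (SE), adjusted p = 1.39e-06), and its level in NSP replicate 1 was over 2-fold that of the other NSPs. Mvd (-3.55), Idi1 (-3.40) and Fdps (-3.34), enzymes of the mevalonate branch, fell by a like amount. No member was called between TNF and untreated cells, where 9.56% of all genes were. The median direct difference of the list was -0.58. Its summed level was 629 to 1153 CPM with TNF and 1225 to 1755 CPM at 72 h without it, with no overlap. CCAAT stood upstream of all 10 list members with a promoter.

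Genes of glycolysis fell in 12 of 19 tested cases and 1 rose (median -0.67), against 30.1% and 31.7% of all genes. Pkm, pyruvate kinase, was at 1258, 1108 and 1169 CPM in the NSPs, 331, 339.7 and 413 CPM with TNF and 459, 598 and 664 CPM at 72 h without it, and was lower with TNF than without (-0.67 ± 0.15 (SE), adjusted p = 0.00601). Ldha, lactate dehydrogenase A, fell from NSPs (-1.76). The gene that rose was Pfkp, the platelet form of phosphofructokinase, at 6.98, 8.07 and 6.71 CPM in the NSPs, 483, 312 and 336 CPM with TNF and 149, 145 and 160.2 CPM at 72 h without it, with no overlap between the 3 groups (log2 fold change 5.70 ± 0.18 (SE), adjusted p = 9.31e-14, and 1.32 ± 0.15 (SE) against untreated cells, adjusted p = 1.17e-05). Vegfa, a target of hypoxia, was at 44.4, 8.47 and 10.1 CPM with TNF and 39.7, 95 and 90.6 CPM in NSPs, and its call was lost without 72 h TNF replicate 2 (-1.46, adjusted p = 0.069) or 3. Of 12 glycogen genes 7 fell and 1 rose (median -0.40), read against the same shares, and when calls had to reach 1 on the log2 scale the counts were 3 and 0. Pygm, the muscle phosphorylase, fell from 6.66, 21.5 and 19.9 CPM to 1.92, 0.638 and 1.88 CPM. Ppp1r3c, which targets a phosphatase to glycogen, was at 121, 174 and 176 CPM in the NSPs, 104, 69.2 and 62.9 CPM with TNF and 130.5, 174 and 194 CPM at 72 h without it, below both other groups (log2 fold change -0.997 ± 0.22 (SE), adjusted p = 0.000667 from NSPs and -1.08 ± 0.22 (SE) from untreated cells, adjusted p = 0.00308).

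Pygb, the brain phosphorylase, was at 346, 697 and 711 CPM in the NSPs, 548, 544 and 608 CPM with TNF and 842, 1137 and 1171 CPM at 72 h without it. It was not called against NSPs and was lower than in untreated cells (-0.89 ± 0.21 (SE), adjusted p = 0.00991), a call lost without 72 h replicate 2 (-0.83, adjusted p = 0.051) or 3. Ugp2, which makes UDP-glucose, was called in neither comparison (-0.20 and -0.56). Ppp1r3d (-1.92) and the liver phosphorylase Pygl (-1.29) fell from under 3 CPM, and Phkb, a phosphorylase kinase subunit, was the member called higher (0.58). The calls of Pygl (-0.88, adjusted p = 0.11) and Phkb (0.11, adjusted p = 0.47) were lost without 72 h TNF replicate 1, and without some of the NSP libraries.

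Of 15 antioxidant genes driven by NRF2, 7 rose and 3 fell (median 0.55), against 31.7% and 30.1% of all genes. Hmox1, heme oxygenase, rose from 31.2, 25 and 24.2 CPM to 208, 86.1 and 109 CPM, and Fth1, the ferritin heavy chain, from 363, 276 and 256 CPM to 2360.5, 992 and 842 CPM, with 72 h TNF replicate 1 highest in both. Srxn1 rose (1.27), while Gsr, glutathione reductase (-1.36), and Taldo1 of the pentose phosphate pathway (-1.03) fell. Of 20 lysosomal genes 7 were higher and 4 lower, close to those shares. Ctsl, cathepsin L, rose from 70.1, 113 and 113 CPM to 417, 351 and 313 CPM and Scarb2 by 0.86 on the log2 scale, whereas Gla (-1.27), Npc2 (-0.82) and Asah1 (-0.79) fell.

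**Figure D4:**
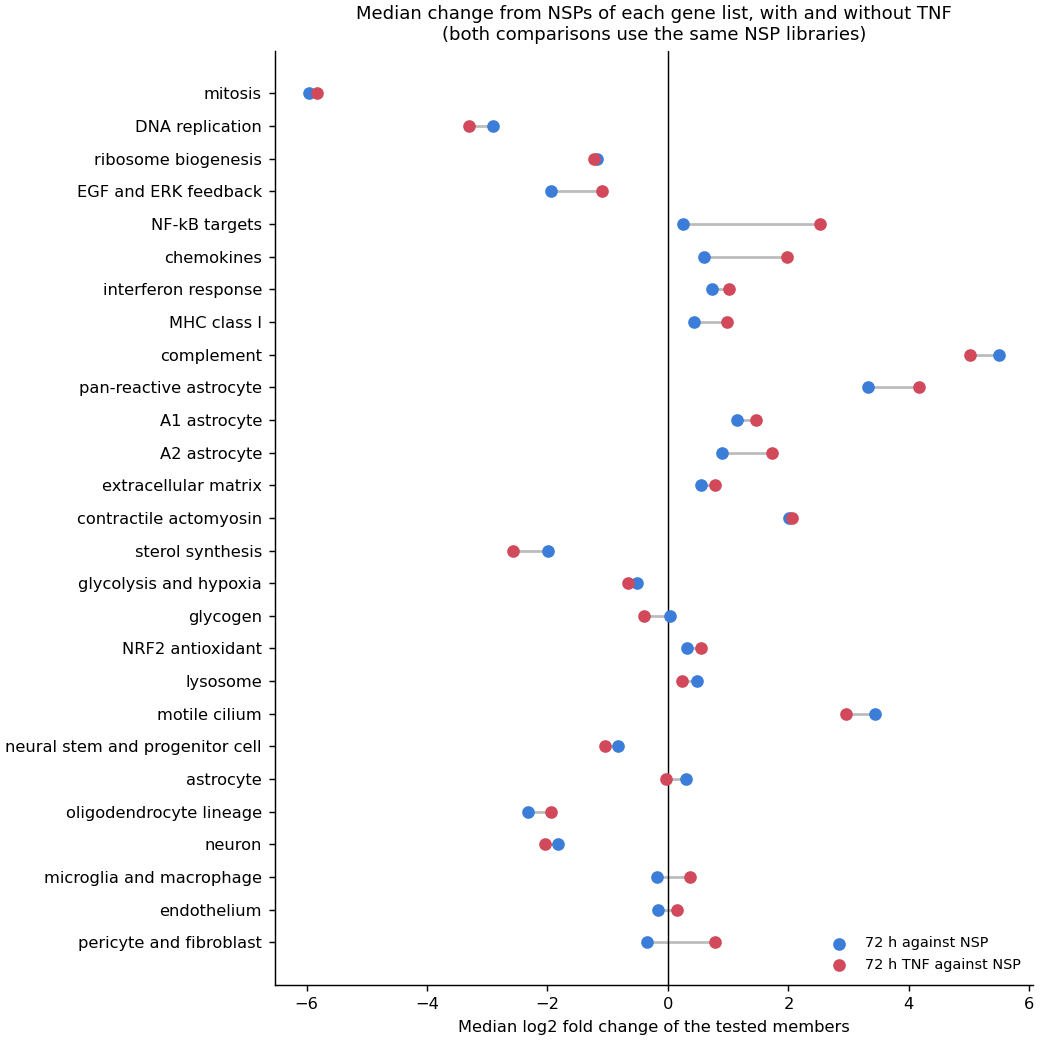
Median log2 fold change from NSPs over the tested members of each gene list, in 72 h cells without TNF (blue) and with TNF (red). Both use the same NSP libraries and fitted values. The points of mitosis lie together near -6, and those of the NF-kB targets lie apart, at 0.25 without and 2.52 with TNF.

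The 12 largest rises among protein-coding genes, by fitted value, included C3 and Steap4. The order of genes absent from NSPs depends on how the model treats counts of 0, so lower bounds are given for them. Of the 12, the 5 described next were at 0 or 1 count in every NSP library. Slc22a14, an organic cation transporter family member, was at 6.48, 24.1 and 25.5 CPM with TNF (at least 107-fold higher), Fgfbp1, a carrier of fibroblast growth factors, at 10.5, 20.4 and 19 CPM (at least 95.1-fold), Drc7 of the ciliary dynein regulatory complex at 16.5, 10.6 and 10.5 CPM (at least 71.7-fold), the antimicrobial peptide gene Defb1 at 6.14, 11.4 and 9.2 CPM (at least 51-fold) and Pappa, a protease that frees insulin-like growth factors, at 23.5, 30.3 and 28 CPM (at least 156-fold). Slco1a4, an organic anion transporter of brain barriers, rose from 0, 0.275 and 0.569 CPM to 68.6, 316 and 263 CPM. Lbp, which hands endotoxin to its receptors, was at least 326-fold higher, Ccn5 at least 126-fold and Col8a1 at least 62.3-fold. In the last 2 and in Slco1a4 and Slc22a14, 72 h TNF replicate 1 was the lowest of its group by over 2-fold.

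The largest falls were again genes of dividing cells. Pbk, a mitotic kinase, went from 118, 56.1 and 58.5 CPM to 0.225, 0 and 0 CPM (log2 fold change -9.81 ± 0.48 (SE), adjusted p = 1.92e-11). The size of this value depends on how the model treats the counts of 0, and it was -13.27 without 72 h TNF replicate 1. E2f8 (at least 87.1-fold lower) and E2f2 (at least 79.4-fold), factors of the E2F family, Neil3, a DNA glycosylase (at least 77.2-fold), and Ska1 of the kinetochore (at least 77.4-fold) fell to 2 counts or fewer in every TNF library. Pimreg, a mitotic regulator, fell by 9.06 on the log2 scale. The replication-dependent histone genes Hist1h3b (-8.17), Hist1h3c (-8.73) and Hist1h3g (at least 177-fold lower) completed the list with the mitotic genes given above. They belong to a family of near-identical copies, so the split of reads among them is uncertain.

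Against untreated 72 h cells, 8 genes that stood high were taken from the protein-coding genes called in both comparisons, with at least 5 CPM in the higher of the TNF and NSP groups and no overlap between those groups. By fitted value the first of them was Casp4, the inflammatory caspase 11 that senses endotoxin (chromosome 9 from 5308828 to 5336783, forward strand of GRCm38). It was at 0.0635, 0.11 and 0.171 CPM in the NSPs, 61.6, 47.8 and 37.5 CPM with TNF and 2.5, 2.82 and 2.2 CPM at 72 h without it, with no overlap between the groups (4.29 ± 0.33 (SE) against untreated cells, adjusted p = 2.12e-07, and at least 279.5-fold above NSPs). Tlr2, a receptor for bacterial lipoproteins, was at 0.19, 0.604 and 0.91 CPM in the NSPs, 32.4, 21.8 and 20.5 CPM with TNF and 1.97, 2.33 and 4.07 CPM at 72 h without it (3.13 ± 0.41 (SE), adjusted p = 5.42e-05). Cldn1, a tight junction protein, was at 0.0635, 0.384 and 0.341 CPM in the NSPs, 9.41, 13.1 and 9.82 CPM with TNF and 0.757, 1.29 and 1.87 CPM at 72 h without it (3.01), and Slc39a4, a zinc importer, at 3.72, 6.44 and 10.9 CPM with TNF and 0.454, 0.859 and 0.991 CPM without (3.14). Paqr5, a membrane progestin receptor, was at 3.43, 1.81 and 1.99 CPM in the NSPs, 8.85, 5.28 and 5.13 CPM with TNF and 0.757, 0.614 and 0.495 CPM at 72 h without it, so that it fell below NSPs without TNF (-1.95, adjusted p = 0.000626) and rose above them with it (1.42, adjusted p = 0.00145). C3, Steap4 and Tnfaip3 made up the rest of the 8. Lgi2 and Adamts20, named after their values were seen, differed more from untreated cells (4.86 and 4.79) but overlapped with the NSPs and so fell outside these limits.

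The 8 genes that stood low under the same limits were Gabbr2, Adora2b, Mchr1, Agt, Myh8, Padi2, Ucma and Lars2. Chgb, a secretory granule protein named after its values were seen, differed more (-4.82) but was under 5 CPM in both NSPs and TNF cells. Gabbr2, a subunit of the GABA B receptor, was at 4.32, 18.4 and 19.1 CPM in the NSPs, 0.732, 0.754 and 0.626 CPM with TNF and 6.05, 8.47 and 5.12 CPM at 72 h without it (-3.20 ± 0.44 (SE) against untreated cells, adjusted p = 9.89e-05). Adora2b, an adenosine receptor, was at 4.51, 8.79 and 9.96 CPM in the NSPs, 1.52, 0.754 and 0.188 CPM with TNF and 3.94, 7.42 and 6.49 CPM at 72 h without it (-2.83), and Mchr1, a receptor for melanin-concentrating hormone, fell from 8.38, 3.79 and 4.27 CPM in NSPs to at most 1 count with TNF. Agt, the angiotensinogen that astrocytes secrete, was at 43.9, 219 and 185 CPM in the NSPs, 34.4, 5.22 and 7.07 CPM with TNF and 61.9, 106 and 81.7 CPM at 72 h without it (-2.41, adjusted p = 0.0255). The calls against untreated cells were lost without 72 h replicate 2 for Mchr1 (-2.50, adjusted p = 0.19) and Agt (-2.21, adjusted p = 0.091), and without each of 3 further libraries in both cases. Myh8, a developmental myosin heavy chain, was at 5.46, 4.34 and 5.52 CPM in the NSPs, 0.282, 0.696 and 0.563 CPM with TNF and 8.7, 7.49 and 14 CPM at 72 h without it, above NSPs without TNF (0.99, adjusted p = 0.0056) and below them with it (-3.30, adjusted p = 7.22e-07). Padi2, which converts arginine to citrulline in proteins (-2.91), and Ucma, a cartilage matrix protein at 53.4, 76 and 78.5 CPM without and 2.7, 12 and 11.8 CPM with TNF (-2.98), were lower too. Lars2, the mitochondrial leucyl-tRNA synthetase, was at 1134, 449.8 and 536 CPM in the NSPs, 103, 101 and 77 CPM with TNF and 1126, 512 and 2252 CPM at 72 h without it (-3.79, adjusted p = 0.000381), with replicates of the untreated and NSP groups that differed by more than 2-fold.

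**Figure D5:**
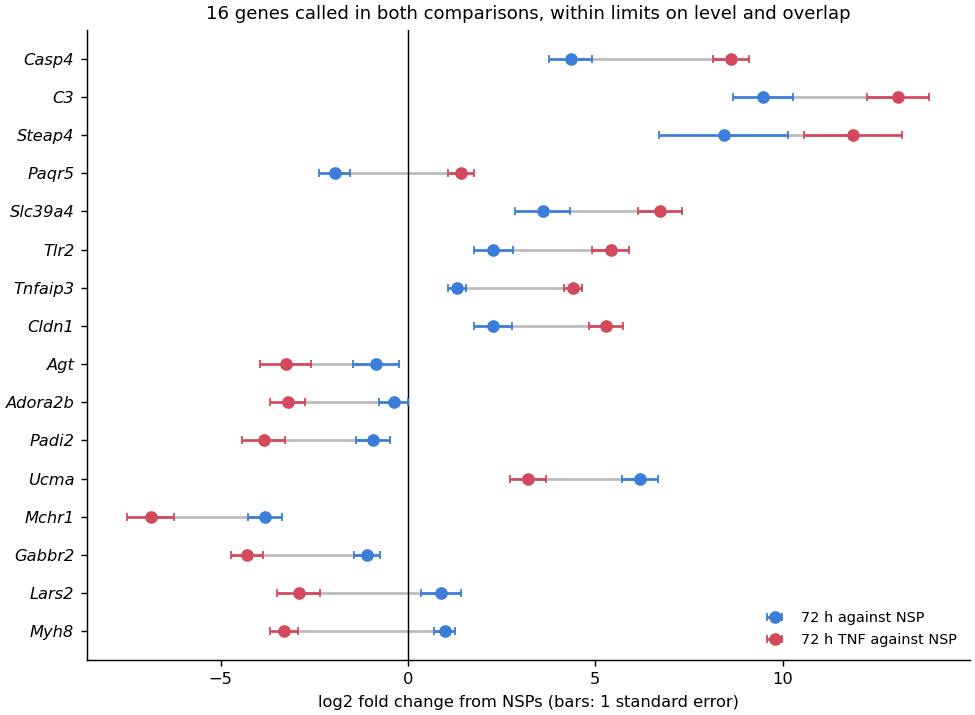
log2 fold change from NSPs with its standard error for the 8 high and 8 low genes against untreated 72 h cells that were called in both comparisons, had at least 5 CPM in the higher of the TNF and NSP groups and did not overlap between them, without TNF (blue) and with TNF (red). Paqr5 lies below 0 without TNF and above 0 with it, and Myh8 and Lars2 lie above 0 without TNF and below 0 with it, although the rise of Lars2 without TNF was not called.

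Of the other genes that the study names, Sbno2, a regulator induced by gp130 cytokines, rose from 22.6, 33 and 31.5 CPM to 199, 84.6 and 117 CPM (2.20), Cd109, a co-receptor that binds TGF-beta, from 252, 248 and 274 CPM to 1238, 696 and 614 CPM (1.72), and Lmbrd1, a lysosomal cobalamin exporter, by 0.72 on the log2 scale. The list was chosen by the study on these samples and is not independent evidence of a direction. Pid1, which restrains insulin signalling, was at 95.8, 87.3 and 89.4 CPM in the NSPs, 62.8, 77.3 and 75.6 CPM with TNF and 138, 145 and 149 CPM at 72 h without it. It was lower than in untreated cells (-0.999 ± 0.14 (SE), adjusted p = 0.00015), and its small difference from NSPs (-0.34, adjusted p = 0.0492) was lost when any one library was left out (-0.21, adjusted p = 0.25 without 72 h TNF replicate 1). Upk3b was at 0 counts in the NSPs, 0.757, 0.491 and 0.77 CPM at 72 h and 0, 0.058 and 0.125 CPM with TNF, and was called lower than in untreated cells (adjusted p = 0.00318). Egr1, an immediate early factor, was at 38.7, 22.1 and 14 CPM in the NSPs, 22.1, 5.57 and 7.57 CPM with TNF and 15.1, 11.5 and 8.03 CPM at 72 h without it and was not called in either comparison.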

How the data were processed

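Ribosome-depleted, stranded, paired-end total RNA libraries were analysed from 3 NSP, 3 untreated 72 h and 3 TNF-treated 72 h cultures, with the 9 other libraries of the series entering the estimate of spread. The authors trimmed reads with Trim Galore, aligned them with STAR to mm10 and counted them with featureCounts, per the submitters' processing notes, and deposited raw counts per gene. Versions, strand setting and the treatment of multi-mapping reads are not given in the sources used here, and RNA quality is given as a range for the series and not per library. Names and positions are those of GENCODE M21 (GRCm38), which holds 54809 of the 54838 identifiers, and where 2 identifiers share a symbol the one with more counts was used.

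From the counts, edgeR 4.0.16 (limma 3.58.1, R 4.3.3) fitted a quasi-likelihood model over 18 libraries with TMM factors and a mean per group, after its filter by expression, with Benjamini-Hochberg adjustment over the 20067 genes tested. The SE is the size of the log2 fold change divided by the square root of F. A fold against a group with at most 3 counts in each library is a lower bound computed at 3 counts per library. No 2 replicates of the 3 groups were one library deposited again, since a chi-square divided by its degrees of freedom ranged from 3.71 to 55.4 over the pairs. Counts cover counting error only, since reads carry no molecular identifiers. On simulated data of 19497 genes for 72 h TNF against NSP, the test found 58% of 100 genes changed 2-fold and 84% of 100 changed 4-fold and called 3 unchanged genes. Few genes were changed in that simulation, whereas 61.9% of the genes tested were called here, so its rates need not hold for these data.

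Genes were named by a rule: the 12 largest rises and falls among protein-coding genes called, of at least 5 CPM and without overlap between groups, the 8 highest and 8 lowest of such genes called against 72 h, up to 4 called members of each list with the largest change, members called against the majority of their list, and genes the study names. Some genes that the rule takes are not reported here. Members and lists were chosen with earlier results of these data known. Alternatives were DESeq2 1.42.0, RLE scaling, other filters on low counts, fits of only the groups compared, a replicate block, a fold limit and leaving out each library. The column of the third 72 h library carries the number 4 in the table and the same index as its label, and was used as replicate 3. Tables and figures used Python 3.11.15, pandas 2.3.3, numpy 2.4.6 and matplotlib 3.10.9. Chromatin accessibility was not analysed here.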

Additional observations from a re-analysis of the deposited data

Results flagged for a closer look

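The genes below are set apart because their change from NSPs differed between cells with and without TNF, by edgeR's direct test of 72 h TNF against 72 h with an adjusted p under 0.05 over all genes tested. Values are log2 differences, TNF minus untreated, among the genes named in the text. Higher with TNF were Lgi2 (4.86), Adamts20 (4.79), Casp4 (4.29), C3 (3.61), Steap4 (3.46), Paqr5 (3.37), Slc39a4 (3.14), Tlr2 (3.13), Tnfaip3 (3.09), Cldn1 (3.01), Col6a2 (2.87), Col6a1 (2.86), Vcam1 (2.81), Nfkbia (2.80), Etv4 (2.40), Pappa (2.20), Cxcl10 (2.13), Ccl7 (2.12), Spry4 (1.97), C1s1 (1.62), Lbp (1.53), Ccl2 (1.53), H2-D1 (1.52), H2-K1 (1.38), Irf1 (1.38), Cx3cl1 (1.37), Ccnd1 (1.34), Fgfbp1 (1.33), Pfkp (1.32), Nfkb2 (1.18), Eda2r (1.12), P2rx7 (1.10), C1ra (1.09), Tap2 (0.93), Olig2 (0.88), Cd109 (0.82), Sbno2 (0.76), B3gnt5 (0.61) and Csf1 (0.52). Lower with TNF were Chgb (-4.82), Myh8 (-4.29), Lars2 (-3.79), Upk3b (-3.35), Gabbr2 (-3.20), Mchr1 (-3.04), Ucma (-2.98), Padi2 (-2.91), Adora2b (-2.83), Slc14a1 (-2.68), Ggta1 (-2.51), Agt (-2.41), Slc38a3 (-2.35), Gfap (-2.31), Ccn5 (-2.12), Rbfox3 (-1.86), Cd59a (-1.57), Hes1 (-1.44), Gpld1 (-1.38), Clu (-1.34), Adk (-1.33), Slc22a14 (-1.30), Mt1 (-1.23), Tm4sf1 (-1.08), Ppp1r3c (-1.08), Cnp (-1.04), Pid1 (-0.999), Mt2 (-0.90), Mt3 (-0.89), Pygb (-0.89), Dnah9 (-0.88), Pkm (-0.67) and Irf9 (-0.52). The calls of Agt, B3gnt5, C1ra, Ccl7, Ccnd1, Cd109, Dnah9, Gfap, Hes1, Irf9, Lbp, Mchr1, Mt2, Pygb, Rbfox3, Sbno2, Slc22a14 and Tap2 were each lost when at least 1 library of the 2 groups was left out. Without 72 h TNF replicate 1 the values of Cd109 and Sbno2 went to 0.45, adjusted p = 0.25 and 0.36, adjusted p = 0.34. Col6a1 and Col6a2 went to 1.82 and 1.43 without it and were still called. Agt, Adora2b and Gfap went the other way, to -3.76, -3.62 and -3.44. Mchr1 and Upk3b had at most 2 counts in every TNF library, so their values depend on how the model treats low counts and are no bound. The causes of these differences were not tested. With 3 samples in each group, single samples were not tested as outliers.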

How the results depend on the processing

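The 12413 calls against NSPs ranged from 11513 to 12205 when each library was left out in turn, and were 12326 with DESeq2, 12420 with RLE scaling, 10545 with only the groups compared, 9428 with at least 10 counts in every library and 7488 with a log2 fold change of at least 1, of which 60.3% were higher against 51.3% without that limit. The 1919 calls against 72 h cells ranged from 965 (without 72 h replicate 2) to 2922 (without 72 h replicate 1) when each library was left out, with 1049 without 72 h replicate 3, and were 1277 with only the groups compared, 987 with a log2 fold change of at least 1, 2297 with DESeq2 and 2742 with no filter on low counts. The fit with the replicate number as a block gave 12303 and 1814 calls, and the calls of Ccnd1, Ccl7, Mt2, Sbno2 and B3gnt5 against 72 h cells were lost in it (adjusted p = 0.056, 0.058, 0.062, 0.068 and 0.065). Replicate numbers did not pair the samples, since correlations of same-numbered deviations were 0.00, -0.06 and 0.03 for NSP and 72 h TNF and 0.11, -0.10 and 0.07 for 72 h and 72 h TNF. No call of the comparison with NSPs changed sign under the alternatives above, and 2 did without both libraries numbered 1. Leaving 24 h TNF replicate 1, which stood apart, out of the estimate of spread gave 12806 and 2314 calls. That alternative and the one without both libraries numbered 1 were chosen after seeing the data. RLE scaling moved the median of all genes from 0.09 to 0.06. Genes with few counts in 1 group have wide intervals, and genes under the filter on low counts could not be read in either direction. Of 238 called fold changes of named genes, 43 moved over 1.5-fold when some library was left out, 16 of them toward 0. Of these 16, those whose move is not given above are Lars2 against 72 h cells (-3.13 without 72 h replicate 3), and against NSPs Fbln5 (-1.69), Aspg (5.16) and Lcn2 (7.98) without 72 h TNF replicate 1, Cdc6 (-4.52), E2f8 (-8.42), Idi1 (-2.75) and Rrm2 (-4.63) without NSP replicate 1, and C3 (by just over 1.5-fold) without NSP replicate 3, all still called. Of 840 counts of list members, 788 stayed within 1.5 times their value across the alternatives, and 52 did not. Several of the 52 came with at least 10 counts required in every library and are given with their lists.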

Other observations

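Several families outside the lists above were chosen after their values were seen, and are set beside the 30.1% of all genes that fell. Of 54 tested histone genes of the clustered Hist type 53 fell from NSPs to 72 h TNF cells (median log2 fold change -3.98), and their summed level went from 4441, 4441 and 3881 CPM to 426, 444 and 615 CPM, against 589, 900 and 838 CPM without TNF. All 80 tested genes of cytosolic ribosomal proteins fell (median -1.61), from 30320, 30317 and 29961 CPM in sum to 10668, 10033 and 9843 CPM. Genes of mitochondrial ribosomal proteins fell in 73 of 77 cases (median -0.93), those of the respiratory chain and ATP synthase in 77 of 83 with 2 rising (median -1.05), and those of the proteasome in 33 of 37 with 1 rising (median -0.97). In untreated 72 h cells against the same NSP libraries the falls were 50, 80, 62, 64 and 34 in the order given, where 27.2% of all genes fell. Without both libraries numbered 1 the falls with TNF were 52, 80, 69, 76 and 33 in the same order. The 3 metallothionein genes Mt1, Mt2 and Mt3, which bind zinc and copper, rose from 125, 261 and 214 CPM in sum to 933, 765 and 888 CPM and were each lower with TNF than without, where the sum was 1378, 2055 and 2098 CPM. The call of Mt2 against untreated cells was lost without any one of 5 libraries (-0.72, adjusted p = 0.21 without 72 h replicate 3).

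Shorter protein-coding genes fell more often. In 4 equal groups by the length of their joined exons the median log2 fold change was -0.38, -0.29, -0.16 and 0.03 from the shortest to the longest, and the median joined exon length was 593 bases for the histone genes and 1806 for the ribosomal protein genes. The part of transcript length in these results was not tested.

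Of the protein-coding genes that differed between TNF and untreated 72 h cells, 42 were called in opposite directions from NSPs, 22 higher with TNF and lower without it, and 20 lower with TNF and higher without it. The 2 comparisons share the NSP libraries. Among them, chosen after their values were seen, Slc38a3, a glutamine transporter, was at 198, 222 and 222 CPM in the NSPs, 62.7, 45 and 51.7 CPM with TNF and 239, 287 and 285 CPM at 72 h without it, Adk, adenosine kinase, at 88.1, 61.8 and 64.5 CPM in the NSPs, 48, 46.4 and 41 CPM with TNF and 93.4, 119 and 127 CPM at 72 h without it, and Chgb, a secretory granule protein, at 1.46, 2.31 and 1.65 CPM in the NSPs, 0.507, 0.812 and 0.375 CPM with TNF and 12, 20.9 and 15.7 CPM at 72 h without it. P2rx7, an ATP-gated channel, was at 119.8, 91.9 and 97.7 CPM in the NSPs, 146, 126 and 129 CPM with TNF and 64.6, 62.6 and 59.7 CPM at 72 h without it, and Eda2r, a receptor of the TNF receptor family, at 221, 169 and 167 CPM in the NSPs, 286, 313 and 269 CPM with TNF and 113, 134 and 153 CPM at 72 h without it. In each of these 5 genes the 3 TNF libraries lay wholly on the other side of the NSPs from the 3 untreated ones. The call of P2rx7 against NSPs was lost without NSP replicate 2 (0.29, adjusted p = 0.051).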
